A study of Mus musculus with 6 samples.

Results

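Dividing cells switch on a shared programme of genes in G2 phase and mitosis, and the RNA of 40 of these genes was followed here in mouse bone marrow stem and progenitor cells. The genes were picked by name for their known work in mitosis, from the cyclin B kinase that starts it to the proteins that pinch the daughter cells apart. Earlier results of these data were known when they were picked. All 40 were found among the 24063 symbols of the count table, and all 40 passed the filter on low counts. The study sequenced RNA of LSK cells, sorted as lacking lineage markers and carrying Kit (cKit) and Sca1, which are enriched for haematopoietic stem cells and early progenitors. Its 6 libraries came from C57/BL6 mice: 3 were labelled Arid2fl/fl:MxCre+ (knockout) and 3 MxCre+ (control). The titles of the control libraries give their Arid2 genotype as wild type (Arid2wt). Arid2 encodes a DNA-binding subunit of PBAF, a chromatin remodelling complex of the SWI/SNF family. Mice of both groups carried the Cre transgene and received pIpC at 6 to 8 weeks of age, and marrow was taken 6 weeks afterwards, so neither group shows cells without the transgene or the injection. The Mx1 promoter answers to interferon in many tissues, so deletion in such mice is not limited to blood cells. The labels do not say whether each library is a separate animal, so the p-values speak of the spread among these 6 libraries, part of which may be technical.

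Entry into mitosis is driven by the kinase CDK1 bound to cyclin B. Aurora kinases, kinesin motors and microtubule-binding proteins build the spindle, kinetochores attach chromosomes to it, and the spindle checkpoint holds back the anaphase-promoting complex until every chromosome is attached. That complex, with its activator CDC20, then marks cyclin B and securin for destruction, and the cell divides. Most haematopoietic stem cells rest outside the cycle, whereas the progenitors among LSK cells divide often. In bulk RNA, a different share of dividing cells and a different amount of these RNAs per dividing cell cannot be told apart.

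The libraries held 12408966 to 28185678 counted reads, and members had from 253 reads (Cdc25c) to 22919 reads (Mki67) in a single library. Arid2 was at 150.2 to 162 CPM (counts scaled to library size) in the libraries labelled knockout and 148 to 165 CPM in the controls. Whole-gene counts do not show the loss of an exon, so the label is used here as given. Xist and Y-linked counts mark all libraries labelled knockout and control replicate 2 as female and control replicates 1 and 3 as male, so sex and group are largely tied together. Of the genes of the sort gate, Kit had 426 to 655 CPM and Ly6a, which encodes Sca1, 12.4 to 22.3 CPM. Of the lineage genes, Itgam reached 326 CPM, while Cd3e had at most 3.53 CPM.

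Many mitotic genes carry a pair of short promoter elements that, as background, time their expression to G2 and mitosis: the cell cycle genes homology region (CHR), bound by the DREAM and MuvB complexes, and the CCAAT box, bound by NF-Y. Promoter windows from 250 bases before to 50 bases after the RefSeq start (GRCm38.p6) were at hand for 34 of the 40 genes, 36 windows in all, and were searched on both strands for TTTGAA or TTTAAA (the CHR) and for CCAAT. Printed here, 5′ to 3′ on the gene's own strand with each match in capitals (a match on the other strand reads TTCAAA or ATTGG), are the promoters of the CDK1 kinase, of both of its B cyclins and of topoisomerase II alpha, and that of Nusap1 as a member without any match. They lie at chr10:69352863-69353162 (Cdk1), chr13:100786437-100786736 (Ccnb1), chr9:70421505-70421804 (Ccnb2) and chr11:99024140-99024439 (Top2a) on the minus strand and at chr2:119618048-119618347 (Nusap1) on the plus strand.
Cdk1: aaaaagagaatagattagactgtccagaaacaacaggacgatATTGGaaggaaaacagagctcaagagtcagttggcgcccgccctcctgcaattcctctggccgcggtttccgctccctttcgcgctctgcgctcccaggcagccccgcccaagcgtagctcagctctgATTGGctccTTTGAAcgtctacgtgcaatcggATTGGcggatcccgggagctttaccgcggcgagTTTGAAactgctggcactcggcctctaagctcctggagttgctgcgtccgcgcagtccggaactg
Ccnb1: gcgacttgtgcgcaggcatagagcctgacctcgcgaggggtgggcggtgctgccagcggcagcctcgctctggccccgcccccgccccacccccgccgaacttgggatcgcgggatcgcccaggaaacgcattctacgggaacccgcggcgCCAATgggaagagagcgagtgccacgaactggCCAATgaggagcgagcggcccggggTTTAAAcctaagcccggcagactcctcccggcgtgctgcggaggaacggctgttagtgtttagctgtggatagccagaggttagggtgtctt
Ccnb2: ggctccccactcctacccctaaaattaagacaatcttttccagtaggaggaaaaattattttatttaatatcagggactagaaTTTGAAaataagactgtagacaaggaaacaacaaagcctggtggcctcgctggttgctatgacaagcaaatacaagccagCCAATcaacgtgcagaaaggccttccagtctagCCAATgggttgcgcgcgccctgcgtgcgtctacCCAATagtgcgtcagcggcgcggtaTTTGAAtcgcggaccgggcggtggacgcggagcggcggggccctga
Top2a: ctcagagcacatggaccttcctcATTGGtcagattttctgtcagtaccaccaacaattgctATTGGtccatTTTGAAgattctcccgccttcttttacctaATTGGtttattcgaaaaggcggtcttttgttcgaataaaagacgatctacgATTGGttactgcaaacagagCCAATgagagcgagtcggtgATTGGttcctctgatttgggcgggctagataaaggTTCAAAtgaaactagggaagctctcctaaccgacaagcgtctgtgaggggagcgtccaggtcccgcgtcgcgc
Nusap1: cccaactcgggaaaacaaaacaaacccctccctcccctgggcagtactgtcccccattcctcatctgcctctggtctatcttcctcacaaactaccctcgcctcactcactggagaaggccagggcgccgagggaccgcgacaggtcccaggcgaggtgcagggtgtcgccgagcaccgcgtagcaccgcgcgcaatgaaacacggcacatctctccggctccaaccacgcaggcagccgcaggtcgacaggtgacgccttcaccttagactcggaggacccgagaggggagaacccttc

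A CHR match stood in the window of 28 of the 34 mitosis genes (82.4%), against 22.5% of the 10122 expressed genes with a window and 27.6% of all 32851 windows of the table. The TTTGAA form made up most of these, in 24 genes (70.6%, against 14.4% of expressed genes), and TTTAAA was in 9 (26.5%, against 10.8%). CCAAT stood in 26 genes (76.5%, against 42.6% of expressed genes and 37.4% of all windows). Of the 34 genes, 21 had 2 or more (61.8%, against 16.3% of expressed genes). Both elements were in 23 genes (67.6%), against 9.06% of expressed genes and 10.7% of all windows. In Ccnb1 a CCAAT pair began 99 and 67 bases before the start and a TTTAAA 42 bases before it. In Ccnb2 3 CCAAT boxes began 87, 54 and 21 bases before the start and TTTGAA began 167 bases before it and again at base 5 of the transcript. Top2a had 6 CCAAT matches, and Nuf2, Nusap1 and Tacc3 had neither element. Across the windows, 33 of 45 CHR matches and 52 of 74 CCAAT matches began within 100 bases of the start. A large part of each window lies that near, and no such count was made for other genes. The paired windows of Ect2 and of Gtse1 overlap, and a match inside both was counted once per window. In 2 places matches overlapped each other. For Kif2c and Cdca8 the RefSeq start lies over 1 kb from the start of the GENCODE gene, and for Aurkb, Cdc25c, Cdca2, Dlgap5, Smc4 and Tpx2 no window was used here. A match is a run of letters and shows neither binding nor regulation in these cells.

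**Figure D1:**
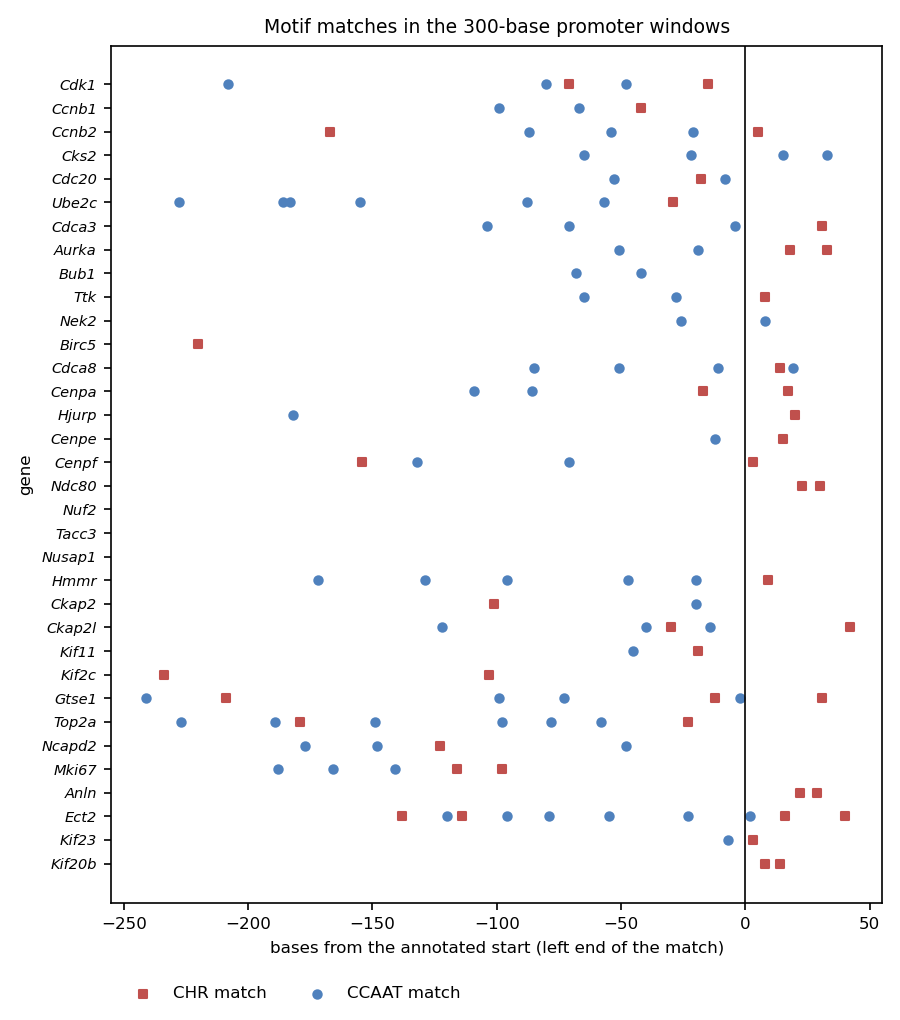
Motif matches in the promoter windows of 34 mitosis genes, by the distance in bases from the annotated start to the left end of the match. Red squares are CHR matches and blue circles CCAAT matches; Ect2 and Gtse1 have 2 windows each, drawn on 1 line. Most matches lie within 100 bases of the start, as does a large part of each window, and Nuf2, Tacc3 and Nusap1 have none.

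None of the 40 mitosis genes differed past the test between the libraries labelled knockout and the controls, in either direction. Of all 13679 genes tested, 3.85% were called higher and 4.58% lower (edgeR quasi-likelihood test, Benjamini-Hochberg adjusted p under 0.05). At an unadjusted p under 0.05 there were 3 of the 40 (7.5%), Kif2c, Ccnb1 and Cenpa, against 24.9% of all genes. DESeq2 called 0 members and limma-voom 0, where they called 11.6% and 8.06% of all genes, and each gave 3 members an unadjusted p under 0.05. The smallest adjusted p of a member was 0.136, for Kif2c. The log2 fold changes ran from −0.14 (Kif23) to 0.22 (Kif2c), with a median of 0.071 against −0.0016 for all genes. In size they had a median of 0.084, against 0.15 for all genes, and 8 of the 40 exceeded that value. A p that misses the threshold does not show that levels were equal, but the intervals set a limit. The 95% confidence intervals of the 40 ratios, knockout label over control, reached no lower than 0.755 and no higher than 1.36, so every member's interval lay inside a 1.5-fold change either way.

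**Figure D2:**
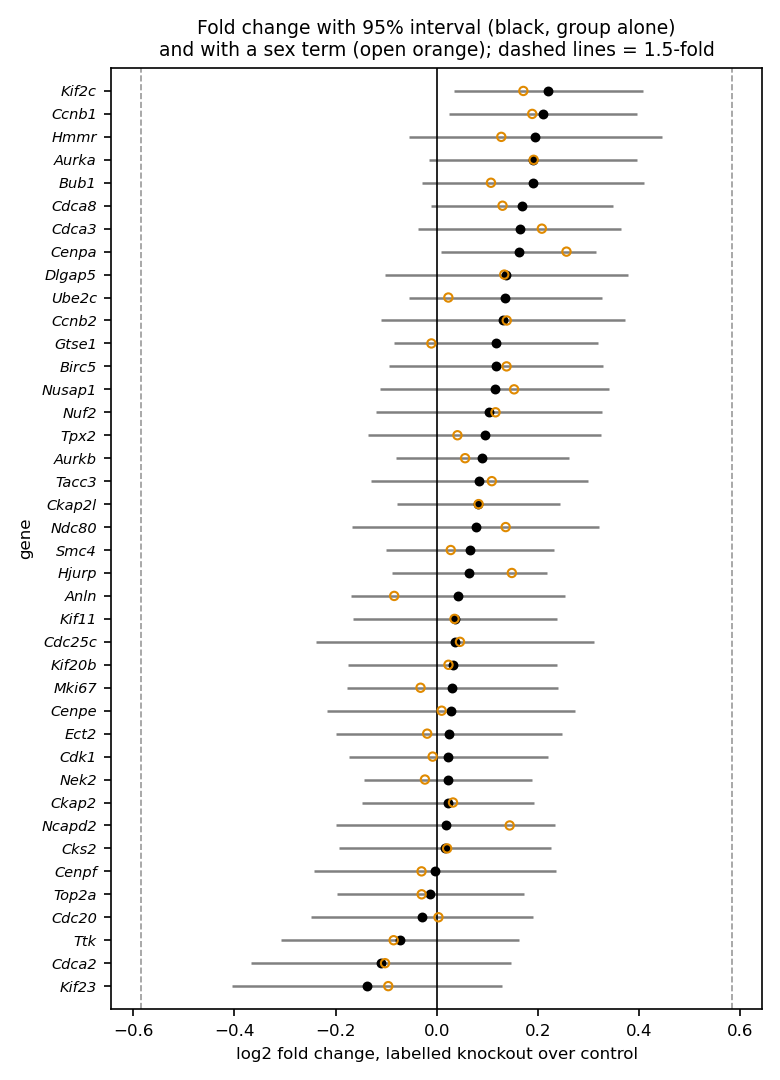
Log2 fold change of each mitosis gene (vertical axis) between libraries labelled knockout and controls, with its 95% interval (grey line); open orange circles are the values with a sex term. All 40 intervals lie between the dashed lines at a 1.5-fold change, and 37 cross 0.

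**Figure D3:**
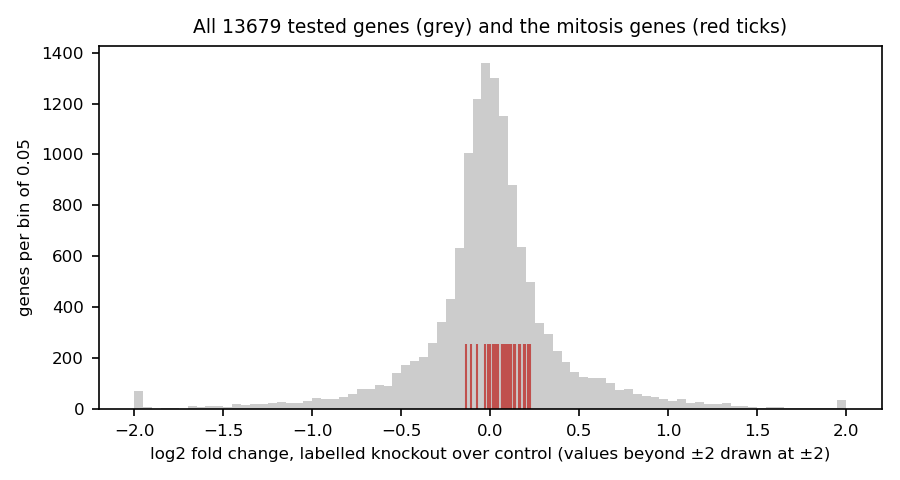
Number of genes by log2 fold change between libraries labelled knockout and controls, for all 13679 tested genes (grey bars, bins of 0.05), with the 40 mitosis genes as red ticks and values beyond ±2 drawn at ±2. The ticks lie between −0.14 and 0.22, inside the central part of the distribution.

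The genes that start mitosis showed small differences. Cdk1, the kinase that all of mitosis depends on (chromosome 10, 69335146 to 69352938, minus strand), had 142, 125 and 129.8 CPM in the libraries labelled knockout and 141, 133 and 116 CPM in the controls. Its groups overlapped (log2 fold change 0.023 ± 0.086 SE, adjusted p = 0.9), and the 95% interval of its ratio was 0.886 to 1.17. Ccnb1 (chromosome 13, 100778650 to 100786570, minus strand), which encodes cyclin B1, had 95.8, 79.9 and 85.8 CPM in the libraries labelled knockout and 78.6, 76.4 and 70.7 CPM in the controls. Each of its libraries labelled knockout was above each control, by little in the nearest pair (log2 fold change 0.21 ± 0.082 SE, adjusted p = 0.151; interval of the ratio 1.02 to 1.32). Ccnb2, for cyclin B2 (chromosome 9, 70407692 to 70421547, minus strand), had 162, 129.5 and 126 CPM in the libraries labelled knockout and 138, 127 and 118 CPM in the controls. Replicate 1 of the libraries labelled knockout stood above the rest, which overlapped (log2 fold change 0.13). Cks2, a small partner protein of CDK1, and Cdc25c, a phosphatase that activates it, had log2 fold changes of 0.016 and 0.035. Cdc25c was the least abundant member at 22.9 ± 3.13 against 22.4 ± 1.58 CPM (SD, n = 3 each). All 5 genes of this role were positive in sign, though Cks2 turned negative with upper-quartile scaling and Cdk1 with a sex term, and Cdk1, Cks2 and Cdc25c in at least 1 fit that leaves out a library, and none passed the test.

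No partner of the anaphase-promoting complex passed the test. Cdc20, which activates the complex and is the target of the spindle checkpoint, had 176, 160.1 and 151 CPM in the libraries labelled knockout and 187, 162 and 148 CPM in the controls. Its highest and its lowest library were both controls (log2 fold change −0.029, interval of the ratio 0.842 to 1.14). Ube2c, the enzyme that loads the first ubiquitin onto its substrates, had 146, 137 and 126 CPM in the libraries labelled knockout and 124, 134 and 113 CPM in the controls (log2 fold change 0.14 ± 0.084 SE, adjusted p = 0.36). Cdca3, also known as trigger of mitotic entry, had 96.5 ± 11.2 against 86.1 ± 3.89 CPM (SD, n = 3 each) and a log2 fold change of 0.16. Exons of Cdc20 and Ube2c overlap those of Elovl1 and Tnnc2 on the opposite strand, and whether reads were counted by strand is unknown here, so reads of such overlaps cannot be assigned with certainty.

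Among the mitotic kinases, Aurka, which matures spindle poles, had 105, 93.4 and 88.6 CPM in the libraries labelled knockout and 91.6, 83.9 and 76.4 CPM in the controls (log2 fold change 0.19 ± 0.090 SE, adjusted p = 0.234). The lowest of its libraries labelled knockout was under the highest control, so the groups overlapped. Bub1, a kinase of the spindle checkpoint at kinetochores, had 97.8, 78.2 and 86.2 CPM in the libraries labelled knockout and 78.9, 81.1 and 69.4 CPM in the controls (log2 fold change 0.19 ± 0.096 SE, adjusted p = 0.264). Aurkb, the kinase that corrects wrong attachments, had 162 ± 10.4 against 152 ± 10.4 CPM (SD, n = 3 each), a log2 fold change of 0.090. Ttk (Mps1), which starts the checkpoint signal, and Nek2, which separates centrosomes, had −0.072 and 0.023. Of Aurkb's partners in the chromosomal passenger complex, Cdca8 (borealin) had 163, 146 and 142 CPM in the libraries labelled knockout and 141, 137 and 123 CPM in the controls. Its groups did not overlap, though knockout-label replicate 3 and control replicate 1 were almost equal (log2 fold change 0.17 ± 0.079 SE, adjusted p = 0.228). Its exons overlap those of 9930104L06Rik on the opposite strand. Birc5, for survivin, had 109 ± 11.2 against 100.2 ± 8.42 CPM (SD, n = 3 each) and a log2 fold change of 0.12.

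Centromere and kinetochore genes had log2 fold changes from −0.0036 to 0.16. Cenpa, the histone H3 variant that marks centromeres (chromosome 5, 30666777 to 30674830, plus strand), had 143, 133 and 134 CPM in the libraries labelled knockout and 123, 114 and 129 CPM in the controls. All of its libraries labelled knockout lay above all controls (log2 fold change 0.16 ± 0.067 SE, adjusted p = 0.176; interval of the ratio 1.01 to 1.24). Hjurp, the chaperone that loads CENP-A, had 508, 484 and 478 CPM in the libraries labelled knockout and 472, 442 and 491 CPM in the controls. Its groups overlapped, with control replicate 3 above 2 of the 3 libraries labelled knockout (log2 fold change 0.065). Ndc80 and Nuf2 encode the paired arms of the complex that grips microtubules, and had 0.077 and 0.10. Cenpe, a kinetochore motor, and Cenpf, a large kinetochore and nuclear matrix protein, had 0.028 and −0.0036, with 135 ± 18.7 against 136 ± 10.8 CPM for Cenpf (SD, n = 3 each).

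All 10 spindle genes were positive in sign, from 0.022 to 0.22, though Ckap2 turned negative with upper-quartile scaling and Gtse1 with a sex term, and Ckap2, Kif11 and Tpx2 in at least 1 fit that leaves out a library, and none passed the test. Kif2c, a kinesin that takes microtubules apart at centromeres (chromosome 4, 117159639 to 117182639, minus strand), had 88.8, 80.1 and 79.3 CPM in the libraries labelled knockout and 75.4, 73.5 and 64 CPM in the controls. Its groups did not overlap (log2 fold change 0.22 ± 0.082 SE, adjusted p = 0.136; interval of the ratio 1.02 to 1.33). Hmmr, a microtubule-binding protein of the spindle, had 102, 77.2 and 77.9 CPM in the libraries labelled knockout and 72.7, 78.5 and 73.4 CPM in the controls. Replicate 1 alone stood apart among the libraries labelled knockout, and the other 2 lay among the controls (log2 fold change 0.20). Kif11, the motor that pushes spindle poles apart, had 246 ± 18.5 against 239.5 ± 24 CPM (SD, n = 3 each) and a log2 fold change of 0.037. Tpx2, which activates Aurora A on the spindle, had 232, 214 and 198 CPM in the libraries labelled knockout and 221, 208 and 172 CPM in the controls (log2 fold change 0.095). Its highest and lowest values were those of knockout-label replicate 1 and control replicate 3. Nusap1, Dlgap5, Gtse1, Ckap2l, Tacc3 and Ckap2, which bind or bundle microtubules, had log2 fold changes of 0.11, 0.14, 0.12, 0.083, 0.085 and 0.022. Exons of Tacc3 and Nusap1 overlap genes on the opposite strand (Tmem129 and Oip5).

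Genes of chromosome structure included the members with the highest CPM, Mki67 and Top2a, and their mean log2 level differed between the groups by −0.0061. Mki67 encodes Ki-67, the proliferation marker that coats mitotic chromosomes (chromosome 7, 135689784 to 135716361, minus strand), and had 890.2, 769 and 729.9 CPM in the libraries labelled knockout and 796, 814 and 728 CPM in the controls. The groups overlapped (log2 fold change 0.031 ± 0.091 SE, adjusted p = 0.871), and the interval of the ratio was 0.884 to 1.18. Top2a, which untangles sister chromatids (chromosome 11, 98992943 to 99024189, minus strand), had 833, 746 and 705 CPM in the libraries labelled knockout and 792, 777 and 734 CPM in the controls (log2 fold change −0.012, interval of the ratio 0.873 to 1.13). Smc4 and Ncapd2, subunits of condensin, had 0.065 and 0.017, and the small RNA gene Scarna10 lies within Ncapd2 on the same strand. Cdca2, which brings a phosphatase to chromosomes as mitosis ends, had 80.4, 75.6 and 59.1 CPM in the libraries labelled knockout and 83.2, 77.1 and 72.3 CPM in the controls (log2 fold change −0.11). Its lowest library was knockout-label replicate 3, under the other 5. Of the cytokinesis genes, Kif23, a motor of the central spindle, had 139, 130.1 and 108 CPM in the libraries labelled knockout and 159, 135 and 122 CPM in the controls (log2 fold change −0.14 ± 0.12 SE, adjusted p = 0.513), the lowest log2 fold change of any member. Its extremes were control replicate 1 and knockout-label replicate 3, and the values between them overlapped. Anln, Ect2 and Kif20b, of the contractile ring and the midzone, had 0.042, 0.025 and 0.032.

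Per kilobase of exon (GENCODE M21), which allows levels to be compared between genes, the controls had the most RNA of Cdc20 (88.7 CPM per kb), Top2a (85.2), Ccnb2 (83.1) and Smc4 (81). The lowest levels per kb in the controls were those of Cdc25c (4.55 CPM per kb), Ndc80 (7.75) and Cenpf (8.8). Exon lengths take every annotated exon of a gene, so a gene with rarely used exons reads low on this scale.

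Some libraries were high or low for most of the mitosis genes at once. Their mean log2 CPM was 7.06, 6.89 and 6.82 in knockout-label replicates 1 to 3 and 6.94, 6.87 and 6.76 in control replicates 1 to 3. The group means, 6.92 ± 0.123 and 6.85 ± 0.0905 (SD, n = 3 each), differed by 0.070 on the log2 scale. The spread from lowest to highest library was 0.24 among those labelled knockout and 0.18 among the controls. Knockout-label replicate 1 held the highest value of 32 of the 40 members and the lowest of 0, where it was highest for 18.8% of all genes. Control replicate 3 held the lowest value of 25 members and the highest of 0, where it was lowest for 22.7% of all genes. Among the controls alone, replicate 1 was the highest for 30 members.

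**Figure D4:**
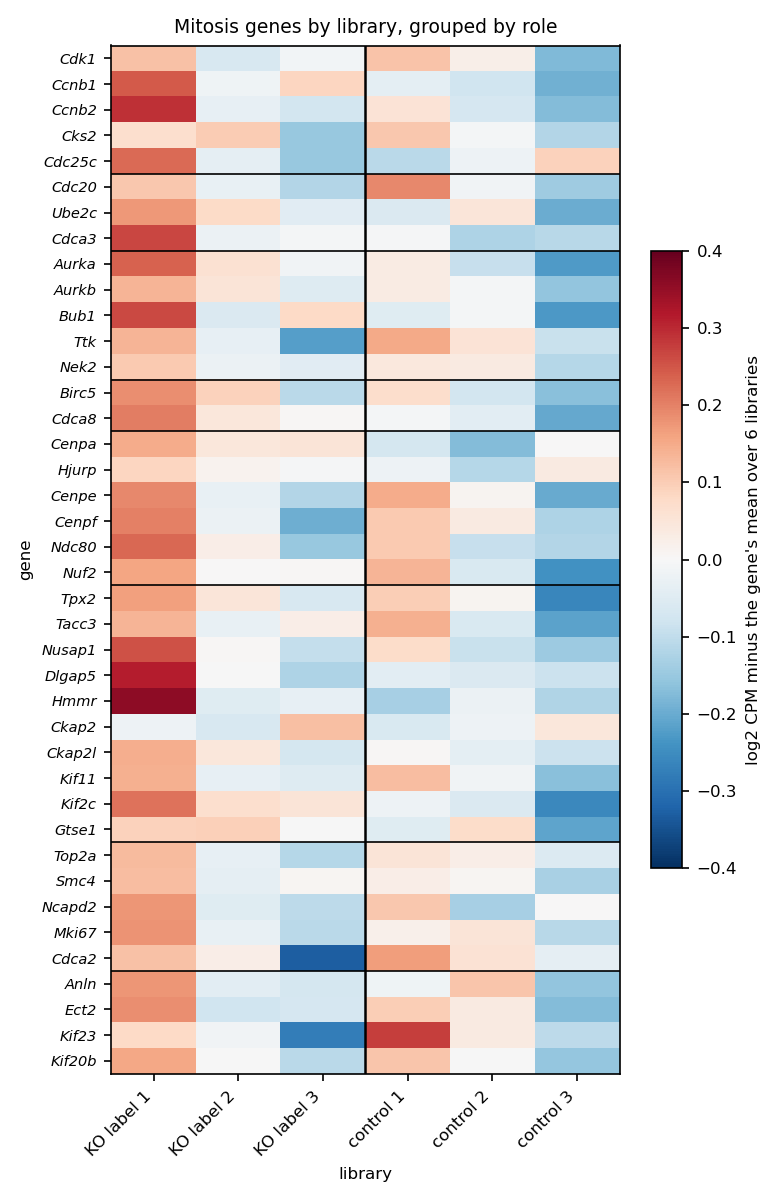
Log2 CPM of each mitosis gene (rows, separated by role) in each library (columns), as the difference from that gene's mean over the 6 libraries; red is above and blue below. The column of knockout-label replicate 1 is red in 39 of 40 rows, and that of control replicate 3 is mostly blue.

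Positive log2 fold changes were seen for 34 of the 40 members, against 49.6% of all genes. The count depended on 2 libraries. Without knockout-label replicate 1 there were 22 positive members and the difference of the group means was 0.0025. Without control replicate 3 there were 24, with a difference of 0.021. Without knockout-label replicate 3 or control replicate 1 the difference was 0.12 or 0.11. With upper-quartile scaling 30 were positive. Groups without overlap were found for 4 members, Ccnb1, Cdca8, Cenpa and Kif2c, all higher in the libraries labelled knockout, and for 0 in the other direction. Among all genes, 15.1% did not overlap and were higher and 16.1% were lower.

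Genes of committed myeloid progenitors had their highest and lowest levels in the same libraries as the mitosis genes. The summed level of the 7 genes of that list in the table (Mpo, Elane, Prtn3, Ctsg, Ms4a3, Cebpe and Gfi1) was 21243, 17152 and 14082 CPM in the libraries labelled knockout and 17173, 18834 and 9469 CPM in the controls. Knockout-label replicate 1 was the highest and control replicate 3 the lowest, while the 4 between them came in another order than for the mitosis genes, and 0 of 7 were called higher and 0 lower. For this and the marker counts below, the shares among all genes were 3.85% called higher and 4.58% lower. Markers of mature neutrophils summed to 7582 to 9708 CPM in the libraries labelled knockout and 3119 to 6021 CPM in the controls, with 6 of 13 higher and 0 lower. S100a8, S100a9 and Ngp made up most of that sum in both groups. Mmp8 (7.32 against 7.40 CPM) and Mmp9 (11.4 against 12.5 CPM) were lower in mean under the knockout label, and the other genes of that list higher. Retnlg (8.00 against 6.42 CPM) and Cxcr2 (13.6 against 11.8 CPM) had overlapping groups. Markers of monocytes and macrophages summed to 2748 to 3361 and 1586 to 1929 CPM (6 of 13 higher, 0 lower). Those of erythroblasts summed to 262 to 805 and 129.9 to 481 CPM (5 of 12 higher, 0 lower). Car1 made up most of that sum, at a mean of 280 against 185 CPM in the controls, with overlapping groups. Hbb-bs had a mean of 67.5 against 4.91 CPM, and Tspo2 was the only gene of that list lower in mean (6.35 against 6.73 CPM). A list of 7 surface genes of stem and progenitor cells, with Kit and Ly6a of the gate among them, summed to 1578 to 1683 and 1899 to 2154 CPM (0 of 7 higher, 3 lower). Within it Ptprc, the pan-leukocyte gene, was not called and had 418, 406 and 475 CPM in the libraries labelled knockout and 368, 396 and 362 CPM in the controls. Lineage markers summed to 319 to 364 and 162 to 243 CPM (1 of 9 higher, 0 lower). Most of that sum was Itgam, at a mean of 289.8 against 171.5 CPM in the controls. Cd4 (3.47 against 5.86 CPM) and Klrb1c (1.23 against 1.88 CPM) were lower in mean under the knockout label, and the other lineage genes higher. No listed marker was at 0 in all libraries. The part of these cells in the levels of the mitosis genes was not tested.

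With a sex term in edgeR, which leaves control replicate 2 as the one control of the same sex as the libraries labelled knockout, 0 of 40 members were called, as 0.314% of all genes were. Of the members, 1 had an unadjusted p under 0.05, Cenpa (log2 fold change 0.26, SE 0.088, adjusted p = 0.328). The median log2 fold change was 0.044, with 29 members positive, and the intervals of the ratios reached from 0.705 to 1.43. Mki67 had −0.032 and Kif2c 0.17 in that fit. In mean log2 CPM the female control, replicate 2, lay between the male controls, replicates 1 and 3.

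A wider set of 121 other G2 and mitosis genes, listed by function, was examined in the same fit. Of 119 tested, 3 had higher and 0 lower levels under the knockout label, where 3.85% and 4.58% of all genes did, and their median log2 fold change was 0.041. The called genes were no larger a share of the list than of all genes. Ncapg2, a subunit of condensin II, had 144, 134 and 147 CPM in the libraries labelled knockout and 114, 112 and 111 CPM in the controls, with every library labelled knockout above every control (log2 fold change 0.33 ± 0.060 SE, adjusted p = 0.0165). Pttg1, which encodes securin, the protein whose destruction frees separase, had 20.5, 21.7 and 18.5 CPM in the libraries labelled knockout and 13.9, 14.8 and 15.4 CPM in the controls (log2 fold change 0.46 ± 0.11 SE, adjusted p = 0.0376). Its groups did not overlap either. Anapc11, the catalytic RING subunit of the anaphase-promoting complex, had 69, 65.3 and 69.2 CPM in the libraries labelled knockout and 59, 54.4 and 57.2 CPM in the controls, again without overlap (log2 fold change 0.25 ± 0.064 SE, adjusted p = 0.0453). These 3 genes were named for passing the test, so the lack of overlap adds nothing to it. Of the 119, 18 did not overlap and were higher and 10 were lower, against 15.1% and 16.1% of all genes. Leaving out 1 library at a time, Ncapg2 kept its call in 3 of 6 fits and Pttg1 and Anapc11 in 0, and with the sex term all 3 lost it (adjusted p = 0.21, 0.349 and 0.237), at log2 fold changes of 0.33, 0.45 and 0.32. Anapc11 also missed the threshold with upper-quartile scaling (adjusted p = 0.0587), with limma-voom (0.0509) and with no low-count filter (0.0565). Without knockout-label replicate 1 or 3, or control replicate 1, none of the 119 was called. The next in order of p, none of them past the test, were Melk (0.26), Spc25 (0.31), Pds5b (−0.19), Zw10 (0.22) and Pkmyt1 (0.19, log2 fold changes).

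DNA replication genes act one phase earlier. The mean log2 CPM of 43 such genes ran from 6.78 to 6.88 over the 6 libraries, with a range of 0.097 among those labelled knockout and 0.059 among the controls; whether this range differs from that of the mitosis genes was not tested. Their median log2 fold change was 0.0065, and 1 was higher and 2 lower past the test, against 3.85% and 4.58% of all genes. Rrm2, a subunit of ribonucleotide reductase, was the one higher (0.46), and Rfc3, of the clamp loader, and Ung, a uracil glycosylase, were lower (−0.27 and −0.31). All 3 lost their call with the sex term (adjusted p = 0.403, 0.359 and 0.197), at log2 fold changes of 0.34, −0.27 and −0.39. Rfc3 also missed the threshold with DESeq2 (adjusted p = 0.0546) and without a filter on low counts (0.0598), and Ung with DESeq2 size factors (0.0531) and limma-voom (0.0511). With 1 library left out, Rrm2 was still called in 2 of 6 fits and Rfc3 and Ung in 0.

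**Figure D5:**
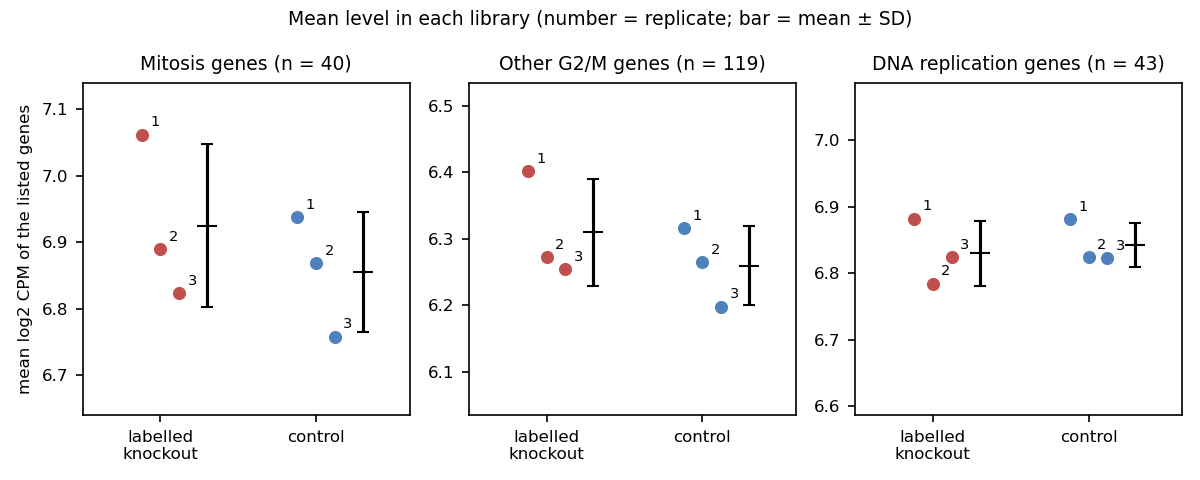
Mean log2 CPM in each library (points, numbered by replicate; bars, mean ± SD) for the mitosis genes, the other G2/M genes and the DNA replication genes, on axes of equal height. Among the mitosis genes the points of each group spread over 0.24 and 0.18 on the log2 scale, and the group means differ by 0.070.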

How the data were processed

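Poly(A)-selected RNA was sequenced with a strand-specific kit, per the labels' protocols. The authors deposited raw read counts per gene symbol, whole numbers with no normalization. The submitters' processing notes name STAR and mm10; how reads were counted, with which annotation and strand setting, is not given there. Of 24063 symbols, 4092 had no read. Symbols with low counts were dropped by filterByExpr at a minimum count of 10 and a total of 15, libraries were TMM-scaled, and groups were compared with the quasi-likelihood test of edgeR 4.0.16 in R 4.3.3, fitted on all 13679 remaining symbols with the group as sole term. Standard errors and 95% intervals come from that fit. Mean log2 CPM used a prior count of 2. Alternatives used DESeq2 1.42.0 and limma 3.58.1, among others. Sex was read from Xist and Y-linked counts. No 2 libraries were duplicates (chi-square per degree of freedom at least 10.2). The named genes are all members, the 8 other G2/M genes with the smallest p, and the DNA replication and G1 genes past the threshold. The members and lists were chosen with earlier results of these data known, so no test over a list was made. Positions are from GENCODE M21 and promoters from RefSeq, both on GRCm38, the assembly of mm10; 6 members share exon bases with another symbol.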

Additional observations from a re-analysis of the deposited data

How the results depend on the processing

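No member was called under any alternative run: other scaling, other filters on low counts, DESeq2, limma-voom, the sex term, an adjusted p under 0.1, each library left out, and the replicate number as a block. The smallest adjusted p was 0.0514 (Kif2c, with the block), and over the fits that leave out 1 library the members' log2 fold changes ran from −0.22 to 0.27. The group difference in the members' mean log2 CPM ran from 0.0025 to 0.12 in those fits, and was 0.046 with upper-quartile scaling, 0.076 with DESeq2 size factors and 0.070 with a prior count of 0.5. The replicate numbers were not taken to pair the libraries, and whether they do was not tested. Deviations from the group means correlated at 0.29, −0.0048 and 0.34 for numbers 1 to 3. Knockout-label replicates 1 and 3 correlated best with the control of their own number, and replicate 2 with control replicate 1 (0.029). The members' mean log2 CPM fell from replicate 1 to replicate 3 in both groups. In edgeR with the number as a block, 7 members had an unadjusted p under 0.05, against 3 without it. Of all 13679 genes, 4145 and 3405 did. With the replicate block 2172 genes in all were called against 1152 without it, 0 mitosis genes, 7 of the other G2/M genes and 5 of the DNA replication genes. With the sex term these were 43, 0, 0 and 0. Leaving out 1 library gave 290 to 984 genes in all, 0 to 1 of the other G2/M genes and 0 to 1 of the DNA replication genes, with fewer libraries to test. Over all genes the count was 530, 290 and 508 without knockout-label replicates 1, 2 and 3 and 473 without control replicate 1. No DNA replication gene was called without any of those 4 libraries, and no other G2/M gene without 3 of them, all but knockout-label replicate 2. Signs turned in 52 member values under alternatives, none past the test. With the sex term, the sign turned for Cdk1 (−0.0080), Cdc20 (0.0035), Nek2 (−0.023), Gtse1 (−0.011), Mki67 (−0.032), Anln (−0.084) and Ect2 (−0.019). With upper-quartile scaling, the sign turned for Cks2 (−0.0059), Nek2 (−0.00028), Ckap2 (−0.0018) and Ncapd2 (−0.0065). With DESeq2 size factors, the sign turned for Cenpf (0.0023). With DESeq2, the sign turned for Cenpf (0.0025). With 1 library left out, signs turned within these ranges: Cdk1 −0.054 to 0.086, Cks2 −0.036 to 0.087, Cdc25c −0.078 to 0.11, Cdc20 −0.10 to 0.065, Ttk −0.16 to 0.0087, Nek2 −0.027 to 0.056, Cenpe −0.065 to 0.11; Cenpf −0.11 to 0.084, Ndc80 −0.025 to 0.16, Tpx2 −0.0034 to 0.17, Ckap2 −0.031 to 0.062, Kif11 −0.034 to 0.11, Top2a −0.081 to 0.040, Ncapd2 −0.071 to 0.075; Mki67 −0.056 to 0.090, Cdca2 −0.20 to 0.0069, Anln −0.039 to 0.12, Ect2 −0.066 to 0.080, Kif20b −0.040 to 0.094. The causes were not tested.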

Other observations

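Some genes that govern the step before DNA replication passed the test. Of 17 G1 cyclins, kinases, inhibitors and pocket proteins tested, 2 had higher and 2 lower levels under the knockout label (edgeR adjusted p under 0.05), against 3.85% and 4.58% of all genes, with a median log2 fold change of 0.17. Ccnd2, for cyclin D2, had 146, 166 and 158 CPM in the libraries labelled knockout and 247, 228 and 260.2 CPM in the controls (log2 fold change −0.64 ± 0.075 SE, adjusted p = 0.00373), and it kept its call in 6 of 6 fits that leave out 1 library. Cdk4, its kinase partner, was lower as well (−0.29). Ccne1, for cyclin E1, had 28.2, 29.2 and 34.7 CPM in the libraries labelled knockout and 16.7, 19.5 and 21.1 CPM in the controls (log2 fold change 0.68 ± 0.12 SE, adjusted p = 0.0165), and Cdkn1b, for the inhibitor p27, was higher too (0.39). Groups did not overlap for any of these 4 genes, but they were named for passing the test, so this adds nothing to it. Of the 17 tested, 6 did not overlap and were higher under the knockout label and 3 were lower. Among all genes these shares were 15.1% and 16.1%. Ccne1 kept its call in 4, Cdkn1b in 3 and Cdk4 in 1 of the 6 fits that leave out 1 library. With the sex term all 4 lost it (adjusted p = 0.0842 for Ccnd2, 0.224 for Ccne1, 0.186 for Cdkn1b and 0.265 for Cdk4), while their log2 fold changes were −0.54, 0.65, 0.43 and −0.28.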
